A study of Mus musculus with 7 samples.

Results

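The miR-17-92 cluster is a run of 6 miRNA hairpins, mmu-mir-17, mmu-mir-18a, mmu-mir-19a, mmu-mir-20a, mmu-mir-19b-1 and mmu-mir-92a-1, that lie in the noncoding host gene Mir17hg. Its members were taken by that position and by no measured value, although the cluster itself was picked for description with earlier results of these data known. It makes up 6 of the 2235 mouse hairpins searched here, and its 12 mature strands are among the 1869 strands that received a tag. Tags are sequenced small RNAs of 15 to 33 nt, and numbers of tags are raw read counts. The mature strands and hairpins received 625427 tags in 7 small RNA libraries, among them tags of copies of miR-19b-3p and miR-92a-3p at a locus on the X chromosome.

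The libraries came from HL-1 cells, a line of mouse atrial cardiomyocytes that descends from an atrial tumour of a mouse carrying a viral large T antigen. Cells were seeded sparsely and kept in culture for 4 days, over which they went from non-beating to beating and reached confluency. Day, beating and confluency cannot be told apart in this design. RNA was taken at day 1 (2 libraries), day 2 (1 library), day 3 (2 libraries) and day 4 (2 libraries), and no group carried a treatment or a genetic change that another lacked. Time course 1 gave libraries at days 1, 3 and 4 and time course 2 gave libraries at all 4 days, each an independent culture. All libraries came from a single immortalised line, so the replicates are repeats of a culture and not separate animals. They are RNA of whole cultures, and fewer cells holding a miRNA cannot be told apart from less of it per cell.

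The primary transcript of the cluster is cut by Drosha into hairpins, Dicer frees a duplex from each hairpin, and usually a single strand of the duplex stays in an Argonaute protein. Bases 2 to 8 of that strand, the seed, choose the mRNAs that are silenced. The cluster, also called oncomir-1, is known as a direct target of the transcription factor MYC, as a promoter of proliferation in many tumours and as a locus that mice need for normal heart and lung development. Its members fall into 4 seed families. The miR-17 family is known for E2f1, Cdkn1a and Bcl2l11 as targets, miR-18a for the connective tissue growth factor gene Ccn2, and miR-92a for genes of endothelial cells such as Itga5.

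The hairpins are printed below because the strand that was kept, its ends and its flanks are read against them. The sequences and loci are those of RefSeq and GENCODE on GRCm38, the plus strand of chromosome 14, 5′ to 3′, and capitals mark the annotated mature strands. The deposited tags were mapped by the submitters to mm9, whose coordinates are not used here. RefSeq annotates no mature strand on the 5p arm of mir-19a, so that arm has no capitals.
mmu-mir-17: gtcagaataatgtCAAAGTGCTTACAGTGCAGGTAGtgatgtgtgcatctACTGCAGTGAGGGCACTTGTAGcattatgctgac
mmu-mir-18a: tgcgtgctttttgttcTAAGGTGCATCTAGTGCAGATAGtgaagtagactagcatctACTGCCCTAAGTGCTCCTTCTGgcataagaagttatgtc
mmu-mir-19a: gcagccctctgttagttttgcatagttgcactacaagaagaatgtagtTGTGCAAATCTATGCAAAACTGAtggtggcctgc
mmu-mir-20a: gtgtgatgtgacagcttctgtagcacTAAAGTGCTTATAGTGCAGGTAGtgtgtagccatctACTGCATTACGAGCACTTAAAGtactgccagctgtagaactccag
mmu-mir-19b-1: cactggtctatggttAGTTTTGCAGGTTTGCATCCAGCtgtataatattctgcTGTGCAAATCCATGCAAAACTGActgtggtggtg
mmu-mir-92a-1: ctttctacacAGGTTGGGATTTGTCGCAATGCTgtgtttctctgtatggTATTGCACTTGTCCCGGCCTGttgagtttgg

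They lie in this order at chr14:115043671-115043754 (mir-17), chr14:115043851-115043946 (mir-18a), chr14:115044000-115044081 (mir-19a), chr14:115044157-115044263 (mir-20a), chr14:115044305-115044391 (mir-19b-1) and chr14:115044427-115044506 (mir-92a-1). The run spans 836 nt, with gaps of 96, 53, 75, 41 and 35 nt between neighbours. GENCODE gives Mir17hg as a lincRNA at chr14:115042879-115046727 with 2 exons, and all 6 hairpins fall in exon 2, chr14:115043271-115046727.

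The main strand of each hairpin, the strand with more tags, is shown next with its seed in capitals, beside the miR-25-3p sequence of another locus that shares the seed of miR-92a-3p. miR-17-5p and miR-20a-5p share the seed AAAGTGC and differ by C1T and C12T, counted from 1 at the 5′ end with the base of miR-17-5p first. miR-18a-5p has the seed AAGGTGC and differs from miR-17-5p at 6 positions, A4G within the seed among them. miR-19a-3p and miR-19b-3p share GTGCAAA and differ by T11C alone. miR-92a-3p and miR-25-3p share ATTGCAC and differ by T1C, C14T and C18T over the 21 nt compared.
miR-17-5p: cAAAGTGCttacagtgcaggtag
miR-20a-5p: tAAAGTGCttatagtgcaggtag
miR-18a-5p: tAAGGTGCatctagtgcagatag
miR-19a-3p: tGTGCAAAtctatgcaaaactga
miR-19b-3p: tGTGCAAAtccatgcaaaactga
miR-92a-3p: tATTGCACttgtcccggcctg
miR-25-3p: cATTGCACttgtctcggtctga

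The mature strand of miR-19b-3p is the same on mir-19b-1 and on mir-19b-2 of the X chromosome, and that of miR-92a-3p is the same on mir-92a-1 and mir-92a-2. Only tags that run past the shared bases can tell the copies apart. For miR-92a-3p, 100158 tags (89.1%) matched mir-92a-1 alone, 6662 (5.93%) matched mir-92a-2 alone and 5544 matched both. Among the tags that could tell, mir-92a-1 held 93.8%, with 92.9% to 95.2% over the libraries. Most of these tags carried a single base past the shared ones, so this share rests largely on that base. Without a mismatch and from the annotated start, it was T in 73790 tags and A in 2547. Where 3 such bases were read, TTG had 8592 tags and AGG 2744, so the share of mir-92a-1 was lower there. Whether the single bases came from the locus was not tested. For miR-19b-3p, 158680 tags (96.0%) matched both copies, 5245 matched mir-19b-1 alone and 1440 matched mir-19b-2 alone. Among the tags that could tell, mir-19b-1 held 78.5%, with 73.7% to 82.2% over the libraries. Values of miR-19b-3p and of miR-92a-3p below, and the shares and totals of the cluster that include them, are sums over both of their loci.

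Tags shared with another miRNA were rare. Of the miR-17-5p tags 0.261% fitted another miRNA equally well, mostly miR-106a-5p (278 tags), a paralogue that differs by T10A. The share was 0.083% for miR-18a-5p, 0.156% for miR-19a-3p, 0.143% for miR-20a-5p, 0.030% for miR-19b-3p and 0.021% for miR-92a-3p. Such a tag was divided equally among the miRNAs it fitted.

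The 7 libraries held 41180989 tags, 4945112 to 6899476 each, and 99.7% were placed on a hairpin. miRNAs enriched in muscle, 8 in number, summed to 90339 to 110367 CPM, the usual unit of tag counts scaled to a common total of placed tags. Most of that sum lay on the 3p arms of mir-1a (mean 64410 CPM) and mir-133a (22365 CPM). The lowest of the 8 had a mean of 3.56 CPM. Lists for blood, epithelium, fibroblast, neuron, hepatocyte and embryonic stem cells summed to at most 62.0 CPM each, and no list was at 0 in all libraries. The 2 strands of mir-126a, which mark endothelium, summed to 871 to 922 CPM at day 4, against 483 to 664 CPM at day 1. Their part in the results below was not tested, those for miR-92a-3p, which endothelial cells also make, included. The spread between libraries was wide, with a biological coefficient of variation of 0.383 over the 813 miRNAs tested.

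The cluster as a whole took a smaller share of the placed tags at day 4 than at day 1. It held 2.01% and 1.75% in the day 1 libraries, 1.46% in the day 2 library, 1.44% and 1.45% in the day 3 libraries and 1.21% and 1.23% in the day 4 libraries. Wherever a day has 2 values, the first is that of time course 1. Values of days 1, 3 and 4 did not overlap. The 6 main strands summed to 12039 and 12205 CPM at day 4, against 19930 and 17333 CPM at day 1, a log2 difference of -0.73 in time course 1 and -0.51 in time course 2. These sums are relative to the other miRNAs of a library, and the median of all 813 miRNAs moved by -0.17 (log2) between day 1 and day 4 when library totals were used and by 0.03 after TMM scaling. TMM, which scales libraries so that most miRNAs do not move, is the scale of all fitted differences below.

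No strand of the cluster passed the test between day 4 and day 1 when the time courses were not matched, and 3 of 12 passed, all lower at day 4, when each time course was set against itself. edgeR's quasi-likelihood test with day as a factor called 0 of 813 miRNAs (0%) at a Benjamini-Hochberg adjusted p of 0.05, against 79 at an unadjusted p under 0.05 and 8 called by DESeq2 of the 482 it gave an adjusted p. The same test with the time course as a block called 99, of which 68 were lower (8.36%) and 31 higher (3.81%). All 12 strands passed the filter on low counts, and the estimate was below 0 for 11 of them, with a median of -0.47, while the median over all miRNAs was 0.03 and 47.5% of them were below 0. The blocked count rested on few libraries: it was 0 without the day 3 library of time course 1, 8 without the day 1 library and 19 without the day 4 library of time course 2, and 41 to 76 without any other library.

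**Figure D1:**
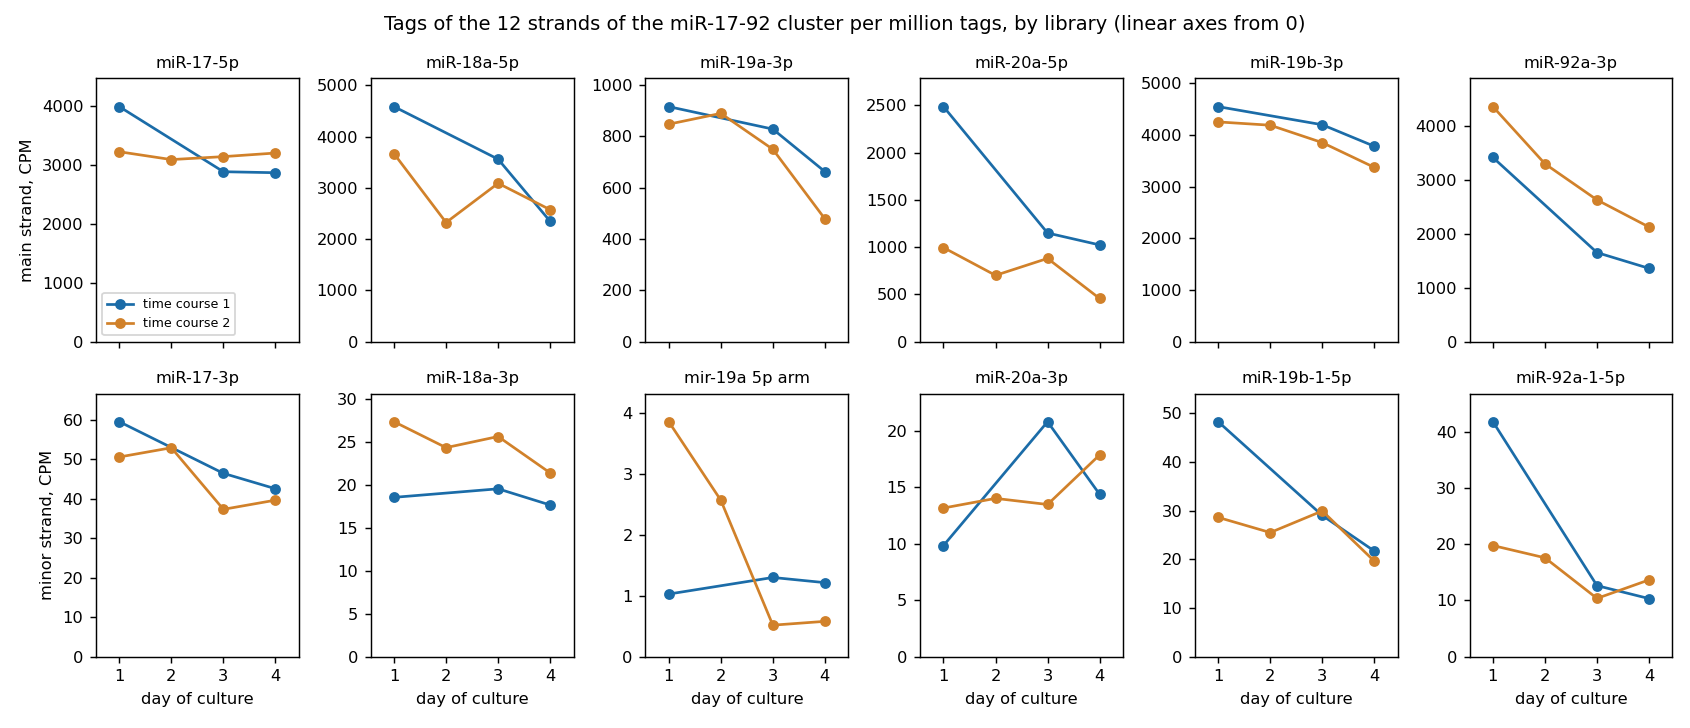
Level in CPM (vertical axes from 0) of the main strand (top) and minor strand (bottom) of each hairpin against day of culture, 1 point for each library, with time course 1 in blue and time course 2 in orange. miR-92a-3p is lower at each later day in both time courses, while miR-17-5p of time course 2 stays between 3088 and 3221 CPM.

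miR-92a-3p is the last strand of the cluster and the only member with its seed. It had 3411 and 4352 CPM at day 1, 3294 CPM at day 2, 1651 and 2626 CPM at day 3 and 1358 and 2123 CPM at day 4. Both day 4 values lay below both day 1 values, and in each time course every later day was lower than the day before it. Set against day 1 of its own time course on library totals, the day 4 value was 2.51-fold lower in time course 1 and 2.05-fold lower in time course 2. On the TMM scale it was 2.07-fold and 1.85-fold lower. The fitted log2 difference was -0.95 ± 0.37 (SE), with edgeR's adjusted p = 0.438 without the block and 0.0306 with it (log2 difference -0.97). The blocked call held under RLE size factors, library totals and DESeq2 with a block (adjusted p = 0.0154 to 0.0280), but of the 7 fits that left out a library only that without day 2 kept it (0.0379). Without any other library the adjusted p was 0.0802 to 0.212, highest without the day 1 library of time course 2.

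A slope on day, which uses all 7 libraries, was -0.32 ± 0.10 (log2 per day, SE) for miR-92a-3p. edgeR's quasi-likelihood test of slopes called 0 of 813 miRNAs (0%) without the block, with 138 at an unadjusted p under 0.05 and 22 called by DESeq2, and miR-92a-3p had an adjusted p of 0.225. With the block the test called 50 miRNAs with a negative slope (6.15%) and 22 with a positive slope (2.71%). miR-92a-3p was among the negative ones at -0.31 per day with an adjusted p of 0.0344, the only member called.

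miR-20a-5p, which differs from miR-17-5p by 2 bases outside the seed, is the other main strand that the blocked test called. It had 2486 and 995 CPM at day 1, 702 CPM at day 2, 1150 and 881 CPM at day 3 and 1024 and 457 CPM at day 4. The day 1 library of time course 1 stood above all others, and the days overlapped, since the day 1 value of time course 2 was below the day 4 value of time course 1. Within each time course the day 4 value was lower, 2.43-fold in time course 1 and 2.18-fold in time course 2 on library totals. On the TMM scale it was 2.00-fold and 1.97-fold lower. The fitted log2 difference was -0.99 ± 0.50 (SE), with edgeR's adjusted p = 0.547 without the block and 0.0454 with it. The blocked call was lost with library totals (adjusted p = 0.0630) and when a library was left out (0.0561 to 0.366), except for the day 4 library of time course 1 (0.0349). Without a block the log2 difference was -0.27 without the day 1 library of time course 1, -0.53 without the day 4 library of time course 2, -1.70 without the day 4 library of time course 1 and -1.50 without the day 1 library of time course 2.

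miR-17-5p, the first strand of the transcript and the one that names the seed family, was not called by either fit. It had 3986 and 3221 CPM at day 1, 3088 CPM at day 2, 2882 and 3138 CPM at day 3 and 2865 and 3199 CPM at day 4. Apart from the day 1 library of time course 1, its levels stayed within 2865 to 3221 CPM. The fitted log2 difference of day 4 over day 1 was -0.03 ± 0.28 (SE), with edgeR's adjusted p = 0.996 without the block and 0.977 with it. On library totals its log2 ratio was -0.48 for time course 1 and -0.01 for time course 2, and -0.20 and 0.14 on the TMM scale. The ratio of miR-20a-5p to miR-17-5p, a quantity that no scaling of the libraries changes, was 0.357 and 0.143 at day 4, against 0.624 and 0.309 at day 1.

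**Figure D2:**
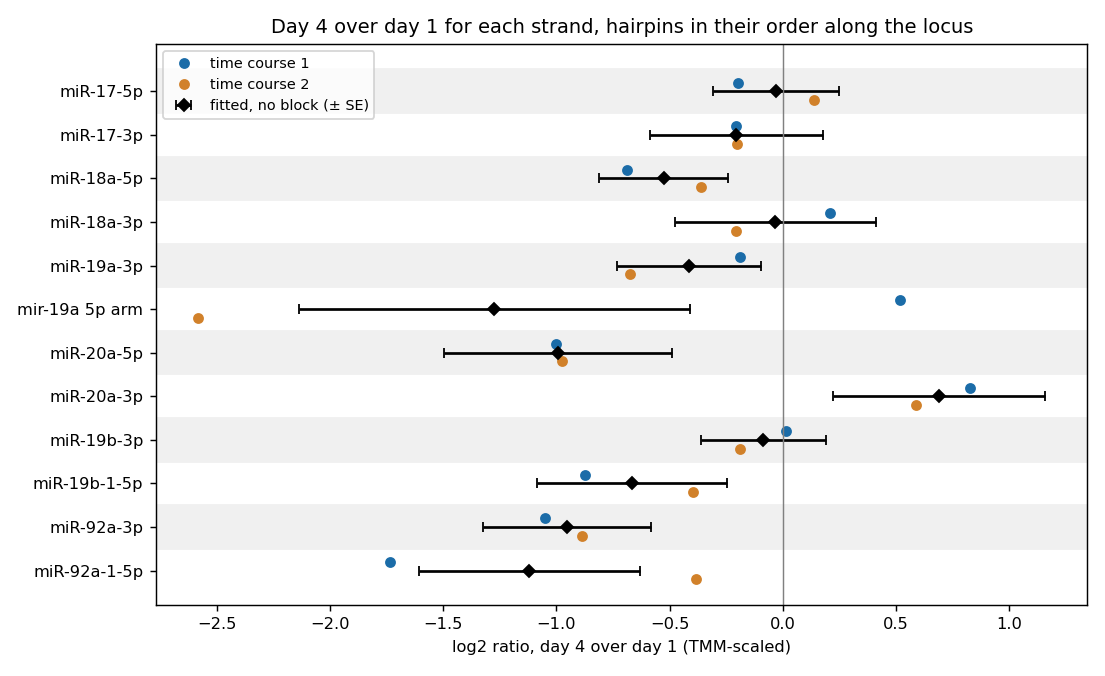
Log2 ratio of day 4 over day 1 on the TMM scale (horizontal axis) for the 12 strands, main strands on grey, in their order along the locus. Coloured points are the ratios within time course 1 and time course 2, and black diamonds with bars are the edgeR estimate without a block ± SE; miR-92a-3p and miR-20a-5p lie near -1 in both time courses and miR-17-5p and miR-19b-3p near 0.

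miR-18a-5p, which alone carries its seed in the cluster, had 4583 and 3665 CPM at day 1, 2324 CPM at day 2, 3559 and 3089 CPM at day 3 and 2347 and 2574 CPM at day 4. Both day 4 values were below both day 1 values, but the lowest value was that of day 2. The day 4 value was 1.95-fold lower than day 1 in time course 1 and 1.42-fold lower in time course 2 on library totals. On the TMM scale it was 1.61-fold and 1.29-fold lower. The fitted log2 difference of -0.53 ± 0.29 (SE) did not pass the test, with edgeR's adjusted p = 0.547 without the block and 0.260 with it.

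The miR-19 strands share their seed. miR-19b-3p had the highest mean over all libraries, though miR-18a-5p was above it in the day 1 library of time course 1 and miR-92a-3p in that of time course 2. It had 4548 and 4252 CPM at day 1, 4189 CPM at day 2, 4198 and 3852 CPM at day 3 and 3781 and 3373 CPM at day 4. Its fitted log2 difference of day 4 over day 1 was -0.09 ± 0.28 (SE, edgeR's adjusted p = 0.951, and 0.90 with the block), and on library totals the log2 ratio was -0.27 for time course 1 and -0.33 for time course 2, and 0.01 and -0.19 on the TMM scale. miR-19a-3p had 916 and 847 CPM at day 1, 889 CPM at day 2, 828 and 750 CPM at day 3 and 663 and 479 CPM at day 4. Its day 4 values were the lowest of all, yet the fitted difference of -0.41 ± 0.32 (SE) had edgeR's adjusted p = 0.661, and 0.439 with the block. Both day 4 libraries also had the lowest ratio of miR-19a-3p to miR-19b-3p, 0.175 and 0.142, against 0.201 and 0.199 at day 1.

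Over all libraries the levels ran from miR-19b-3p (mean 4028 CPM, rank 48 of 1869 strands) through miR-17-5p (3197 CPM, rank 55), miR-18a-5p (3163 CPM, rank 57), miR-92a-3p (2688 CPM, rank 59) and miR-20a-5p (1099 CPM, rank 86) to miR-19a-3p (767 CPM, rank 104). These are counts of strands of 21 to 23 nt without a correction for how well each sequence is captured. miR-19b-3p was above miR-17-5p in 7 of 7 libraries. The next neighbours changed places between libraries: miR-17-5p was above miR-18a-5p in 4 of 7 libraries, miR-18a-5p above miR-92a-3p in 5 of 7 and miR-20a-5p above miR-19a-3p in 5 of 7. The first of these orders differed between days 4 and 1 but did not follow the days between. The ratio of miR-17-5p to miR-18a-5p was 0.870 and 0.879 at day 1 and 1.33 at day 2. It was 0.810 and 1.02 at day 3 and 1.22 and 1.24 at day 4. miR-92a-3p was above miR-20a-5p in all 7. The order along the transcript and the order of the levels were not the same, since the outer hairpins mir-17 and mir-92a-1 and the inner mir-19b-1 and mir-18a were high and mir-19a and mir-20a, which adjoin each other, were low.

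Each hairpin's share of the cluster's own tags is free of the scaling between libraries. It averaged 27.3% ± 2.90 for mir-19b-1, 21.8% ± 2.56 for mir-17, 21.0% ± 2.75 for mir-18a, 17.6% ± 5.13 for mir-92a-1, 7.12% ± 2.87 for mir-20a and 5.12% ± 0.75 for mir-19a (SD over the 7 libraries of all days). The share of mir-92a-1 had the largest SD in percentage points, with 11.3% and 17.3% at day 4, against 17.2% and 25.02% at day 1, lower at day 4 in both time courses. That of mir-20a, which ranged more widely for its level, was 8.55% and 3.86% at day 4, against 12.4% and 5.77% at day 1, also lower in both. That of mir-17 lay the other way, with 23.9% and 26.3% at day 4, against 20.1% and 18.7% at day 1, and its days 4 and 1 did not overlap. The ratio of miR-92a-3p to miR-17-5p was 0.474 and 0.664 at day 4, against 0.856 and 1.35 at day 1.

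Across the 7 libraries the main strands did not all vary together, although their hairpins lie in a single transcript. The Pearson correlation of their log2 CPM was 0.96 between miR-19a-3p and miR-19b-3p and 0.80 between miR-20a-5p and miR-19b-3p. It was 0.58 between miR-17-5p and miR-20a-5p and 0.18 between miR-20a-5p and miR-92a-3p. The points share their library totals and come from 2 time courses, so these values describe the libraries only. miR-20a-5p was high in time course 1 and miR-92a-3p in time course 2 at each of days 1, 3 and 4.

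Set beside the summed level of the main strands, the miRNAs outside the cluster with the most similar course were miR-3102-5p (r = 0.94), the 5p arm of mir-328 (r = 0.93), miR-331-5p (r = 0.91), miR-7a-5p (r = 0.91) and miR-99a-3p (r = 0.90). They come from 398 candidates with a mean of at least 10 CPM, whose median r was 0.22 over the same 7 libraries. miR-3102-5p, the nearest, had 314 and 386 CPM at day 4, against 734 and 523 CPM at day 1.

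The minor strands of the 6 hairpins held under 1% of the cluster's tags together, since 99.1% lay on the main strands. The minor strand took 1.44% of the tags of mir-17, 1.29% of mir-20a (95% Wilson interval 1.19% to 1.40%, counting error only), 0.724% of mir-19b-1, 0.681% of mir-18a, 0.680% of mir-92a-1 and 0.204% of mir-19a. miR-17-3p lay between 37.3 and 59.5 CPM, miR-19b-1-5p between 19.6 and 48.2 CPM and miR-18a-3p between 17.6 and 27.3 CPM, and none of them passed the test. The 5p arm of mir-19a had 64 tags in all, 3 to 24 in a library, and was not called by either fit.

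miR-92a-1-5p, which can come only from this locus, had 41.7 and 19.8 CPM at day 1, 17.6 CPM at day 2, 12.6 and 10.4 CPM at day 3 and 10.3 and 13.7 CPM at day 4. All 4 libraries of days 3 and 4 were below those of days 1 and 2, with the day 1 library of time course 1 far above the rest. The fitted log2 difference of day 4 over day 1 was -1.12 ± 0.49 (SE), with edgeR's adjusted p = 0.508 without the block and 0.0478 with it (-1.05). The blocked call was lost with library totals (adjusted p = 0.0973), in DESeq2 with a block (0.0959) and in each of the 7 fits that left out a library (0.0785 to 0.624). The blocked difference was -0.55 without the day 1 or the day 4 library of time course 1, and -1.61 without the day 4 library of time course 2.

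Between day 3 and day 1 the test called 0 of 813 miRNAs (0%), against 42 at an unadjusted p under 0.05 and 13 by DESeq2, and with the block 50 lower (6.15%) and 8 higher (0.984%). miR-92a-1-5p was the only member called with the block, at a log2 difference of -1.18 and edgeR's adjusted p = 0.0366, against 0.644 without it. miR-92a-3p had -0.69 ± 0.37 (SE), with an adjusted p of 0.647 and 0.178 with the block. edgeR called 0 of 813 miRNAs (0%) between day 2, a single library assumed to vary like the others, and day 1, with 29 at an unadjusted p under 0.05, 2 by DESeq2 and 7 with the block. Between day 4 and day 3 it called 0 (0%), with 9 at an unadjusted p under 0.05 and 0 by DESeq2 and with the block, and no member was called in either comparison by any of these fits.

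miR-20a-3p was the only strand whose day 4 estimate lay above day 1. It had 9.85 and 13.2 CPM at day 1, 14.0 CPM at day 2, 20.8 and 13.5 CPM at day 3 and 14.4 and 17.9 CPM at day 4. Both day 4 values lay above both day 1 values. The log2 difference was 0.69 ± 0.47 (SE), with edgeR's adjusted p = 0.618 without the block and 0.211 with it, so the difference did not pass either fit. The minor strand made up 1.39% and 3.76% of the tags of mir-20a at day 4, against 0.395% and 1.31% at day 1. The arm share was tested by limma on log2 odds (pseudocount 0.5, at least 50 tags of the hairpin in every library) with 0 calls among 217 hairpins (0%) and 21 at an unadjusted p under 0.05, or 4 calls with the block, and mir-20a at -1.69 ± 0.74 (SE) for the 5p arm had an adjusted p of 0.495, and 0.230 with the block.

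The start of a strand sets its seed, and the starts were uniform. Of the tags without a mismatch, 96.7% of miR-17-5p, 97.8% of miR-18a-5p, 96.0% of miR-19a-3p, 97.7% of miR-20a-5p, 99.1% of miR-19b-3p and 98.6% of miR-92a-3p began at the annotated base. The most frequent other start was 1 base upstream for miR-19a-3p (3.30%) and miR-17-5p (2.96%) and 1 base downstream for miR-20a-5p (2.15%) and miR-18a-5p (1.52%). limma on the log2 odds of a start elsewhere called 0 of 259 miRNAs (0%) between day 4 and day 1, with 24 at an unadjusted p under 0.05. miR-17-5p began at the annotated base in 97.2% and 97.7% of its tags at day 4, against 96.4% and 95.8% at day 1, and the upstream share was lower in both time courses. The log2 odds of a start elsewhere differed by -0.64 ± 0.23 (SE, limma's adjusted p = 0.468).

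The 3′ ends varied far more. The annotated end was the most frequent for miR-17-5p (57.4%), miR-18a-5p (60.0%), miR-19a-3p (73.3%), miR-20a-5p (74.9%) and miR-19b-3p (72.3%). The strands of the miR-17 and miR-18 seeds had most of their other ends 1 base beyond it, at 29.5%, 21.7% and 17.1% for miR-17-5p, miR-18a-5p and miR-20a-5p. The miR-19 strands had theirs 1 base short of it, at 16.6% for miR-19a-3p and 18.9% for miR-19b-3p. limma on the log2 odds of an end past the annotated one called 0 of 266 miRNAs (0%) between day 4 and day 1, with 18 at an unadjusted p under 0.05.

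**Figure D3:**
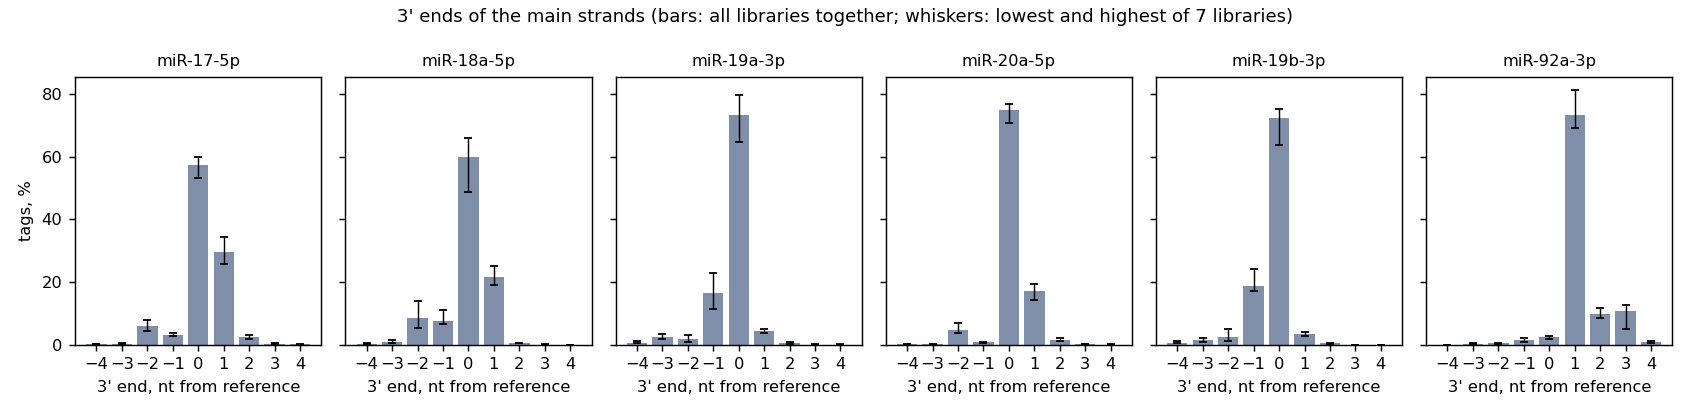
Share of tags (%, vertical axis) by the distance of the 3′ end from the annotated end (nt, horizontal axis) for the 6 main strands, bars for all libraries together and whiskers for the lowest and highest of the 7 libraries. miR-92a-3p peaks at 1 base past the annotated end (73.5%), the other strands at the annotated end.

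miR-92a-3p was the exception, since only 2.34% of its tags ended at the annotated base and 73.5% ended 1 base later. Its most frequent forms are printed with the seed in capitals because their last bases separate the loci: after the shared 21 bases mir-92a-1 continues with ttg and mir-92a-2 with agg. Of the 103810 tags without a mismatch that began at the annotated base, 71.1% carried a single added T, 9.15% TT and 8.28% TTG, all as on mir-92a-1. The form with AGG, as on mir-92a-2, made up 2.64%, and a single added A 2.45%.
miR-92a-3p with T: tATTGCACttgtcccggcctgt
miR-92a-3p with TT: tATTGCACttgtcccggcctgtt
miR-92a-3p with TTG: tATTGCACttgtcccggcctgttg
miR-92a-3p with AGG: tATTGCACttgtcccggcctgagg

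The forms with TTG and AGG, of the 2 loci, were low in the same libraries. TTG made up 4.78% in the day 3 library of time course 1 and 3.59% in the day 4 library of time course 2, against 8.38% to 9.81% in the other 5, and AGG made up 1.71% and 1.51% in those 2 libraries, against 2.70% to 3.06% in the other 5. These 2 libraries belong to different days and time courses. The rarer and longer forms TTGA and AGGA made up 0.752% and 0.291% in the first of them, where AGGA was at its highest. The share of mir-92a-1 among the tags that could tell was 93.2% and 95.2% at day 4, against 92.9% and 94.2% at day 1.

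The paralogous clusters carry the same seeds, and their part of each family differed. In the miR-18 family the cluster held 97.6% to 99.2% of the tags, the rest being miR-18b-5p of the X-linked mir-106a-363 cluster. Its 100% in the miR-19 family follows from the counting, since tags of the X-linked mir-19b-2 were counted with it. In the miR-17 family the cluster held 16.1% to 21.8%, while miR-93-5p (8032 to 14743 CPM) and miR-106b-5p (4943 to 11865 CPM) of the mir-106b-25 cluster were the most abundant. miR-106a-5p and miR-20b-5p of the X-linked cluster stayed at or below 167 and 132 CPM. The levels of that whole family were 24096 and 16741 CPM at day 4, against 33317 and 20477 CPM at day 1.

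In the miR-92 family miR-92a-3p was the larger part at day 1 and miR-25-3p, encoded with miR-93 and miR-106b in an intron of Mcm7, at day 4. miR-25-3p had 2368 and 2335 CPM at day 1, 2769 CPM at day 2, 3513 and 2996 CPM at day 3 and 3198 and 4095 CPM at day 4, all later values above those of day 1. miR-92a-3p made up 29.6% and 33.9% of the family's tags at day 4, against 58.2% and 64.1% at day 1, with 53.7% at day 2 and 31.8% and 46.1% at day 3. The family as a whole summed to 4592 and 6256 CPM at day 4, against 5862 and 6785 CPM at day 1, and those values overlap. The log2 difference of miR-25-3p was 0.85 ± 0.30 (SE, edgeR's adjusted p = 0.438, and 0.0573 with the block), and its slope of 0.30 ± 0.08 (log2 per day) had an adjusted p of 0.153 without the block, 0.0378 with it and 0.0462 in DESeq2. miR-92b-3p, at 33.3 to 97.5 CPM a small part of the family, had -1.10 ± 0.46 (SE, edgeR's adjusted p = 0.481, and 0.0424 with the block). The blocked call of miR-92b-3p was lost with library totals (0.0684) and without 5 of the 7 libraries, at most 0.412 without the day 4 library of time course 2, and held without the day 2 library and without the day 4 library of time course 1.

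**Figure D4:**
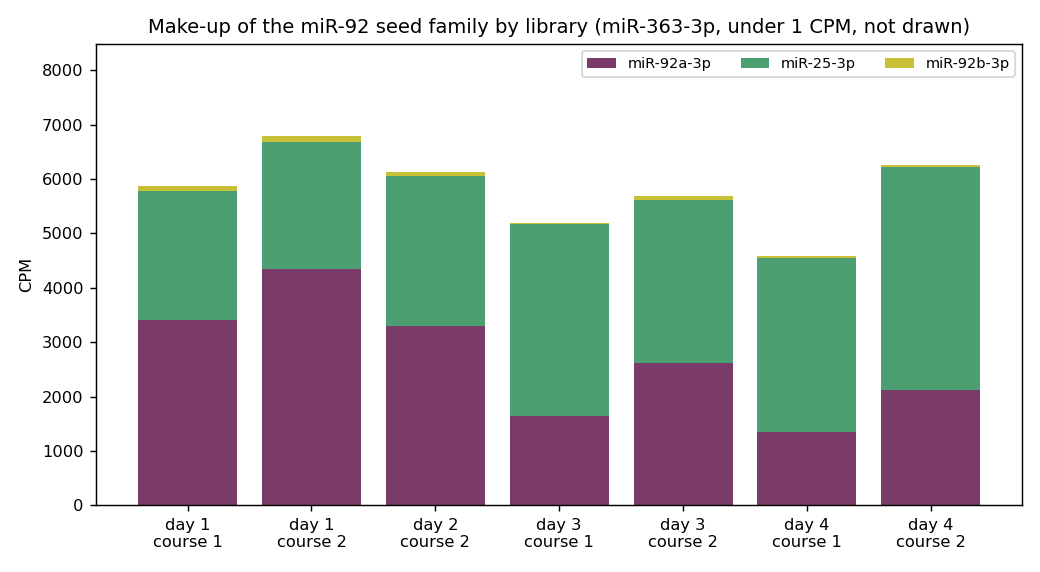
Level in CPM (stacked bars from 0) of the miRNAs with the miR-92 seed in each library, in order of day and time course. The lower block, miR-92a-3p, is 1358 and 2123 CPM at day 4, against 3411 and 4352 CPM at day 1, while the block above it, miR-25-3p, is larger in every later library than at day 1.

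Of the 18 strands of the paralogous hairpins, 12 passed the filter on low counts. Their estimates of day 4 over day 1 were below 0 for 10 of 12, with a median of -0.44, against 0.03 over all miRNAs. With the block 1 was called lower, miR-92b-3p, and 0 higher, while 8.36% of all miRNAs were called lower and 3.81% higher, so the share called was near that of all miRNAs. The remaining 6 strands, among them miR-363-3p with 6 tags in all, were left out for low counts.

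miRNAs known to be repressed by MYC, the activator of the cluster, were set beside it from a list of 25, all of which were tested. Estimates of day 4 over day 1 were above 0 for 17 and below 0 for 8, with a median of 0.10, against 0.03 over all miRNAs. Of all miRNAs 47.5% were below 0. edgeR called 0 of them, and 2 of 25 with the block, both higher, where 3.81% of all miRNAs were called higher: the 5p arm of mir-30b, with 33809 and 36104 CPM at day 4, against 25632 and 23349 CPM at day 1 (0.73 ± 0.26, adjusted p = 0.438, and 0.0359 with the block), and miR-30c-5p, with 21463 and 25523 CPM at day 4, against 14377 and 16085 CPM at day 1 (0.83 ± 0.30, adjusted p = 0.438, and 0.0303 with the block). Both blocked calls were lost with library totals (0.158 for mir-30b and 0.104 for miR-30c-5p) and in DESeq2 with a block. When a library was left out, the call of mir-30b was lost in all 7 fits (0.0640 to 0.274) and that of miR-30c-5p in all but those without the day 2 library or the day 4 library of time course 2 (0.0425 and 0.0439). The other abundant members of the list, the 5p arm of mir-30d and miR-29a-3p, were not called by either fit. In CPM, the let-7 members of the list were all lower at day 4 than at day 1 in time course 2. In time course 1 some of them were lower and others higher. mRNA of Myc itself was not measured in these libraries.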

How the data were processed

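Small RNA under 70 nt of HL-1 cells was sequenced on the SOLiD platform, and tags were matched by the authors to miRBase hairpins and to mm9. For each library they deposited tag sequences with raw counts, not normalized. In all, 101 lines without a sequence (293 tags) were left out. Each tag was placed at its best ungapped position on 2235 hairpins from GENCODE and RefSeq on GRCm38, allowing at most 2 mismatches and an overhang of up to 4 bases, and a tag that fitted several miRNAs equally was divided among them. A tag that fitted several copies of 1 mature miRNA was counted once.

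Counts were rounded, filtered by filterByExpr, scaled by TMM (factors 0.924 to 1.15) and tested with edgeR 4.0.16 in R 4.3.3 by its quasi-likelihood test fitted to all 7 libraries with 1 level for each day (residual df 3, or 5 for the slope). The fits with the time course as a block, on which every call of a member rests, left fewer residual df. They were not stricter for that. For the 5p arm of mir-126a between day 3 and day 1, the log2 difference was 0.479 ± 0.337 (SE) without the block. With the block it was 0.462 ± 0.328, smaller for its SE. edgeR's unadjusted p was still lower with the block, 0.174 against 0.190. How far the blocked calls rest on this was not tested. p-values were adjusted over all 813 miRNAs with the threshold at 0.05. Shares were tested with limma 3.58.1 on log2 odds, for 50 tags or more in every library and 10 or more of each outcome. A replicate number marks 1 repeat of the whole culture, and libraries of the same number deviated together: over 813 miRNAs, r was 0.345 between days 1 and 3, 0.386 between days 1 and 4 and 0.344 between days 3 and 4. The numbers were therefore taken as pairing the libraries and a blocked fit was added. Alternatives were DESeq2 1.42.0, RLE size factors, library totals, no filter, 0 mismatches, shared tags left out, only tags that start within 3 nt of the annotated start, and leaving out each library, and, chosen after seeing the data, the block combined with other settings and the tags of copies elsewhere left out. The tests were also run on simulated data drawn without any difference between time courses. Those runs therefore cannot check the blocked fit on data where time courses differ.

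Named were all strands of the 6 hairpins, their paralogues and seed families, the 4 miRNAs with most tags of a list, and the 5 miRNAs most like the cluster. The members and lists were chosen with earlier results of these data known. Depth limits precision for strands of few tags, and intervals for counting error would not cover the spread between cultures.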

Additional observations from a re-analysis of the deposited data

Results flagged for a closer look

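Tags outside both strands of mir-20a, which no comparison used, were counted in every library. Before the 5p strand lay 44 tags of 15 sequences, 6, 2, 5, 13, 5, 6 and 7 in the libraries in order of day and time course, above the 3 tags that a count of 0 allows in all but the day 1 library of time course 2. The most frequent was 21 nt long, spanned bases 6 to 26 of the hairpin and ended at the base before miR-20a-5p.
mir-20a before the 5p strand: atgtgacagcttctgtagcac
mir-20a after the 3p strand: actgccagctgtagaactccag
After the 3p strand lay 24 tags of 7 sequences, 2, 3, 6, 2, 2, 3 and 6 in the same order, above 3 tags only in the day 2 library and the day 4 library of time course 2, though above it over all libraries. The most frequent was 22 nt long and spanned bases 86 to 107, the last base of the hairpin. The sequences are printed because they adjoin the mature strands. The hairpin models of mir-17, mir-18a, mir-19b-1 and mir-92a-1 hold fewer bases outside their strands than mir-20a, which left less room for tags of this kind. Short tags could still be placed on some of them, and mir-18a had 1 tag before its 5p strand and 0 after its 3p strand. No comparison between hairpins was made. No difference between days was tested at these counts.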

How the results depend on the processing

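Without a block, edgeR called 0 miRNAs in each comparison, and the counts depended on the model. With the replicate block it called 7 between day 2 and day 1, 58 between day 3 and day 1, 99 between day 4 and day 1 and 72 for the slope on day, and DESeq2 without a block called 2, 13, 8 and 22 in that order. The blocked count between day 4 and day 1 was 95 with RLE size factors, 69 with library totals and 45 in DESeq2, and 0 to 76 with a library left out. For the slope, library totals, leaving out shared tags and keeping only tags that start within 3 nt of the annotated start gave 1 call each and no filter gave 2, and leaving out a library gave 0 to 1, as it did between day 4 and day 3. Arm shares gave 4 calls with the block, 1 at 20 tags or more and 0 to 1 with a library left out, and end shares 0 to 2.

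Among the members, leaving out a library turned the direction of the log2 difference of miR-17-5p (-0.20 to 0.12), miR-18a-3p (-0.33 to 0.32) and the 5p arm of mir-19a (-2.62 to 0.55). It also turned the log2 odds of the 5p arm of mir-19a (-1.49 to 0.45) and mir-92a-1 (-0.80 to 0.63), of another start of miR-19a-3p (-0.14 to 0.043) and miR-20a-5p (-0.43 to 0.30), and of an end past the annotated one of miR-19b-3p (-0.24 to 0.20) and miR-92a-3p (-0.24 to 0.22). None of these differences was called. With the block no other call of a member changed than those of miR-92a-3p, miR-92a-1-5p and miR-20a-5p. The block was combined with leaving out a library for day 4 over day 1 alone, so the blocked calls at day 3 and for the slope have no such check. The 5p arm of mir-19a, with 64 tags, is the strand that depth limits most.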

Other observations

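miR-18a-5p had 335 tags that began 4 bases past its annotated start, beyond the window of 3 bases used for start shares. They numbered 80, 95, 62, 27, 13, 13 and 45 in the libraries in order of day and time course, among 132070 tags of the strand. The most frequent form, of 18 nt, had 241 tags and spanned bases 21 to 38 of the hairpin. The loops of the hairpins held few tags, 11 on mir-17, 3 on mir-18a, 1 on mir-92a-1 and 0 on mir-20a and mir-19b-1.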
